A study of Mus musculus with 9 samples.

Results

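Chromatin accessibility was examined at 10 mouse genes of the switch between epithelial and mesenchymal states: Cdh1, Epcam, Grhl2 and Esrp1 on the epithelial side, and Cdh2, Vim, Snai1, Zeb1, Zeb2 and Twist1 on the mesenchymal side. The measurement was ATAC-seq, in which a transposase inserts sequencing adapters into open DNA, so that more reads in a region mean a more accessible region. A counted region was taken as a member when it lay in the RefSeq span of a listed gene, or within 50 kb of it with that gene as the nearest protein-coding gene. This gave 166 regions of the 157497 counted, 93 of them overlapping their gene, and all 166 passed the filter on low counts. Grhl2 had 35 regions, Cdh1 25, Zeb2 18, Snai1 17, Esrp1 17, Zeb1 16, Epcam 13, Cdh2 11, Twist1 9 and Vim 5.

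The 9 libraries came from mouse embryonic stem cells without treatment, 3 per group. NanogKO cells, of a line labelled N{delta} with the code 44C6, carry a Nanog knockout, and both other groups share that knockout under a second line name, N{delta}:cE:iN, with the codes 44J and 44JN. By their titles, NanogKO:Esrrb cells carry added Esrrb, and NanogKO:Esrrb:Nanog cells carry added Esrrb and Nanog. How either factor was added is not in the labels. NANOG and ESRRB are transcription factors that sustain self-renewal of these cells. All cultures held 10% serum with leukaemia inhibitory factor at 1000 U/ml, and cells were sorted as positive for PECAM, found on undifferentiated cells, and negative for PDGFRA, found on primitive endoderm. Because the NanogKO libraries come from a line with another name, an effect of Esrrb and a difference between lines cannot be told apart in the comparisons with NanogKO, which also share their control libraries.

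Epithelial cells hold together through E-cadherin and keep a defined polarity, and in an epithelial to mesenchymal transition they lose these contacts and become motile. Transcription factors of the SNAI, ZEB and TWIST families repress epithelial genes by binding E-box sequences, and GRHL2, ESRP1 and the miR-200 family of microRNAs act on the epithelial side. The miR-200 family and the ZEB factors repress each other. Mouse embryonic stem cells are epithelial-like, with E-cadherin at their contacts, and a transition of this kind takes place at gastrulation.

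Total counts in regions ran from 35545030 to 58520948 per library. Levels are given in CPM, the count scaled to library size with TMM factors, and log2 CPM values correlated within groups at Pearson's r of 0.964 to 0.983 across regions, with the lowest values in NanogKO:Esrrb:Nanog (0.964 to 0.971). By the chi-square per region between libraries of a group, which grows with read depth, replicate 3 of NanogKO:Esrrb:Nanog stood furthest from its group (7.16 and 9.5, against 3.55 to 6.38 for the other pairs). It has the highest total count. Pearson's r did not single it out: in that group r was 0.971 for replicates 1 and 2, 0.971 for 1 and 3, and 0.964 for 2 and 3. No label says that replicates were separate cultures, so the p-values reflect only how far these libraries differ within a group, and that variation may be technical. The region inside Nanog (chr6:122713174-122713525) had 0.902, 0.937 and 1.56 CPM without Esrrb, 3.02, 3.83 and 4.02 with it, and 4.25, 4.49 and 6.17 with Esrrb and Nanog, and the deleted part of the gene is not in the labels. Marker genes were read in regions within 1 kb of their promoter windows or, for genes without such a window, of their span ends. All 8 stem cell marker genes had such a region, with summed levels of 244.5 to 273.2 CPM in NanogKO, 303.6 to 341.4 in NanogKO:Esrrb and 325.4 to 381.2 in NanogKO:Esrrb:Nanog. Primitive endoderm markers (6 of 7 with a region, none at Gata4) summed to 196.7 to 208.6, 154.5 to 185.9 and 168.6 to 182.5 CPM, and fibroblast markers (4 of 7, none at Col3a1, Dcn or Lum) to 37.6 to 43.0, 35.2 to 36.7 and 33.0 to 38.5 CPM. The part of these marker shifts in the results that follow was not tested. In bulk libraries, fewer cells with an open region and a region less open in each cell cannot be told apart.

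Sequences are shown for 3 of the genes, chosen after their values were seen: Epcam, whose start region fell against NanogKO, Vim, whose start region rose, and Snai1, whose window holds an E-box. They are the 250 bases before the gene start of Epcam (chr17:87635729-87635978), Vim (chr2:13574061-13574310) and Snai1 (chr2:167537945-167538194), from RefSeq on GRCm38.p6, all on the plus strand. Capitals mark CAGGTG, the E-box that SNAI and ZEB factors bind, or its reverse complement CACCTG.
Epcam: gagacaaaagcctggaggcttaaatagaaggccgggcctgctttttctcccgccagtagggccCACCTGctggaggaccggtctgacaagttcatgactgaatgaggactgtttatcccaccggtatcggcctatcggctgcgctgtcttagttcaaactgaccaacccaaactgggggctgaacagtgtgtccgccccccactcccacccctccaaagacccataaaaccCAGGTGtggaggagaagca
Snai1: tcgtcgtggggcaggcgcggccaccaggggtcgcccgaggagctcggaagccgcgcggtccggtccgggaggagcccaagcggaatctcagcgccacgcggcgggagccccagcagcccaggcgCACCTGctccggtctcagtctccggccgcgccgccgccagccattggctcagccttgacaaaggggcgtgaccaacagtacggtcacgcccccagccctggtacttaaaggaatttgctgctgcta
Vim: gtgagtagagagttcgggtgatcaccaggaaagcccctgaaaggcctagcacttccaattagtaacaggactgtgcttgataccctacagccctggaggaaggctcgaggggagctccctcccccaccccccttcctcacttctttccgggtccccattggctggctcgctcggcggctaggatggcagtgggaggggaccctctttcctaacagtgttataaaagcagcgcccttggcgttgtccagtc
The Epcam window holds CAGGTG 2 times, the Snai1 window 1 time, and those of Vim, Twist1 and Zeb2 do not hold it, against 17.2% of 32851 windows of the same length. AAGGTCA, a sequence that ESRRB binds, and its reverse complement TGACCTT are in none of the windows of these 5 genes, and 4.08% of all windows hold either. A match is a description of the letters and not of binding.

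The microRNAs of the miR-200 family are shown because their seeds (bases 2 to 8, in capitals) define the targets that the family shares, among them Zeb1 and Zeb2. Sequences are the mature 3p arms of RefSeq on GRCm38.p6.
miR-200b-3p: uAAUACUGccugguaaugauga
miR-200c-3p: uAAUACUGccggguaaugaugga
miR-429-3p: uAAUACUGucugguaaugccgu
miR-200a-3p: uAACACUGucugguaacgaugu
miR-141-3p: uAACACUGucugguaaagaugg
By seed, miR-200b, miR-200c and miR-429 share AAUACUG, and miR-200a and miR-141 share AACACUG. By position, Mir200b, Mir200a and Mir429 lie together on chromosome 4 and Mir200c and Mir141 on chromosome 6.

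Most regions of the epithelial genes that changed were less accessible in cells with added Esrrb. In NanogKO:Esrrb, 59 of the 166 regions were lower than in NanogKO and 20 were higher, at an adjusted p under 0.05 from edgeR's quasi-likelihood test over all regions. Of all tested regions 37.0% were called, 20.0% higher and 17.0% lower, so the members' share of lower calls lay above the background and their share of higher calls below it. The 90 epithelial regions held 40 of the lower and 10 of the higher calls, with a median log2 fold change of -0.40. The 76 mesenchymal regions held 19 lower and 10 higher calls, with a median of -0.28, beside -0.01 over all regions. Leaving out each of the 9 libraries in turn kept 43 of the 59 lower and 11 of the 20 higher calls in every fit. Regions were counted where the deposited peak list of any group held a peak. Of the 166 regions, 23 have a peak in the NanogKO list alone, so they entered through the group where they are high. Falls against NanogKO at such regions follow in part from that choice, as do rises at regions without a NanogKO peak. How many calls lie at such regions was not counted.

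In NanogKO:Esrrb:Nanog, 66 regions were lower and 26 higher than in NanogKO, where 49.3% of all regions were called, 24.9% higher and 24.4% lower. The epithelial genes had 45 lower and 11 higher, with a median of -0.52. Mesenchymal genes had 21 lower and 15 higher, with a median of -0.03, beside -0.01 over all regions. Between both groups with Esrrb, NanogKO:Esrrb:Nanog had 23 higher and 20 lower regions (from here on, a change "with Nanog" is this comparison), where 24.6% of all regions were called, 12.6% higher and 12.0% lower. The mesenchymal regions were called higher 15 times and lower 6 times (median 0.18), and the epithelial regions higher 8 times and lower 14 times (median -0.10). Of the 23 higher calls only 11, and of the 20 lower calls only 8, were kept in every fit with a library left out. The higher calls numbered 14 without NanogKO:Esrrb replicate 1 or 3 or NanogKO:Esrrb:Nanog replicate 1 and 15 without NanogKO:Esrrb:Nanog replicate 2, and the lower calls 13 and 12 without NanogKO:Esrrb replicates 1 and 3. Without NanogKO:Esrrb:Nanog replicate 3, the counts higher and lower were 23 and 66, 32 and 65, and 29 and 25 in the 3 comparisons. Without NanogKO replicate 2 the mesenchymal regions had 6 higher in NanogKO:Esrrb and 13 lower in NanogKO:Esrrb:Nanog, against NanogKO. With Nanog, 8 of them were higher without NanogKO:Esrrb replicate 3 or NanogKO:Esrrb:Nanog replicate 1, 9 without NanogKO:Esrrb:Nanog replicate 2, and 19 without replicate 3 of that group. Of the epithelial regions, 8 were lower without NanogKO:Esrrb replicate 1 or 3, 9 without NanogKO:Esrrb:Nanog replicate 2, and 4 were higher without NanogKO:Esrrb replicate 1. The split also moved with scaling, to 12 higher and 25 lower without TMM factors and 12 and 29 with upper-quartile factors, as the median over all regions moved from -0.01 to -0.11 and -0.12. The mesenchymal regions then had 7 higher and 8 lower under both scalings, so that higher calls no longer outnumbered lower ones, and the epithelial regions 5 and 17, and 5 and 21. Relative to that median, the epithelial and mesenchymal medians were -0.09 and 0.19 with TMM, -0.10 and 0.19 without it, and -0.09 and 0.19 with upper-quartile factors. The difference between the epithelial and mesenchymal genes was not tested.

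**Figure D1:**
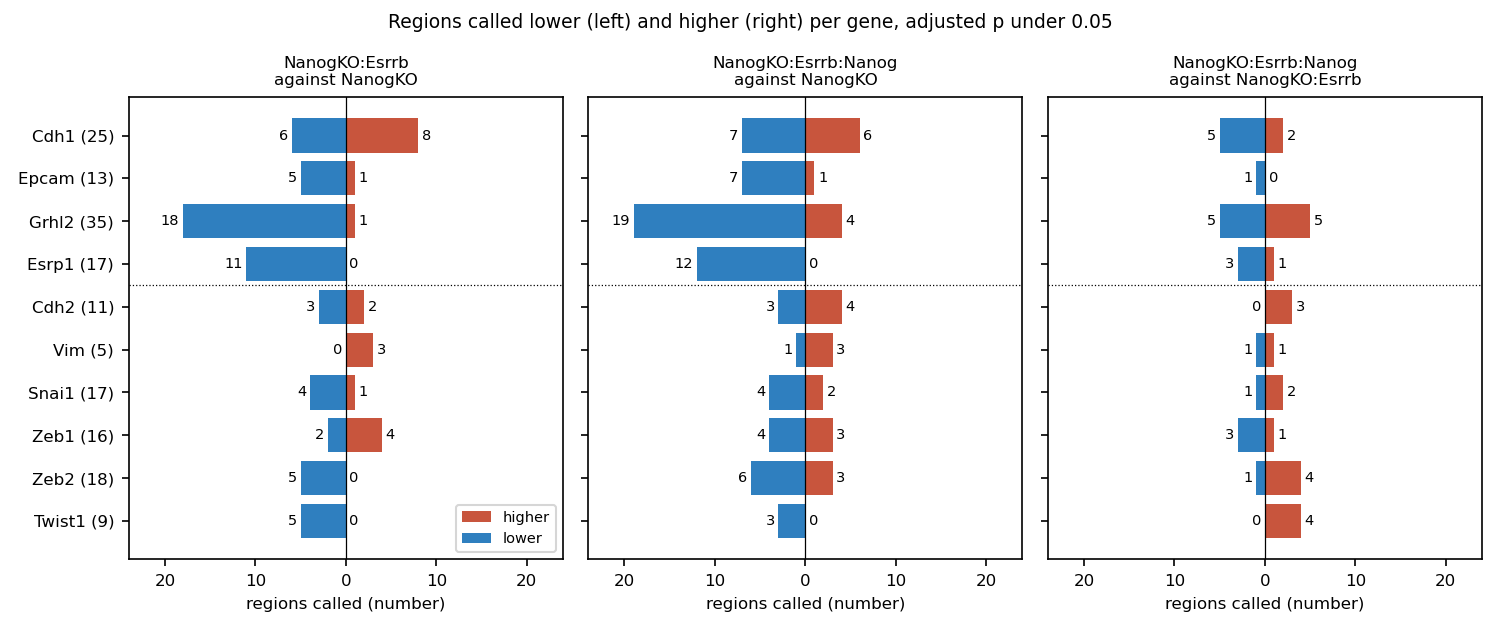
Number of regions called lower (blue, leftward) and higher (red, rightward) for each gene in the 3 comparisons, with the gene's number of regions in brackets; the dotted line parts epithelial from mesenchymal genes. Lower calls gather at Grhl2 (18 and 19 of 35) and Esrp1 (11 and 12 of 17) in both comparisons with NanogKO.

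**Figure D2:**
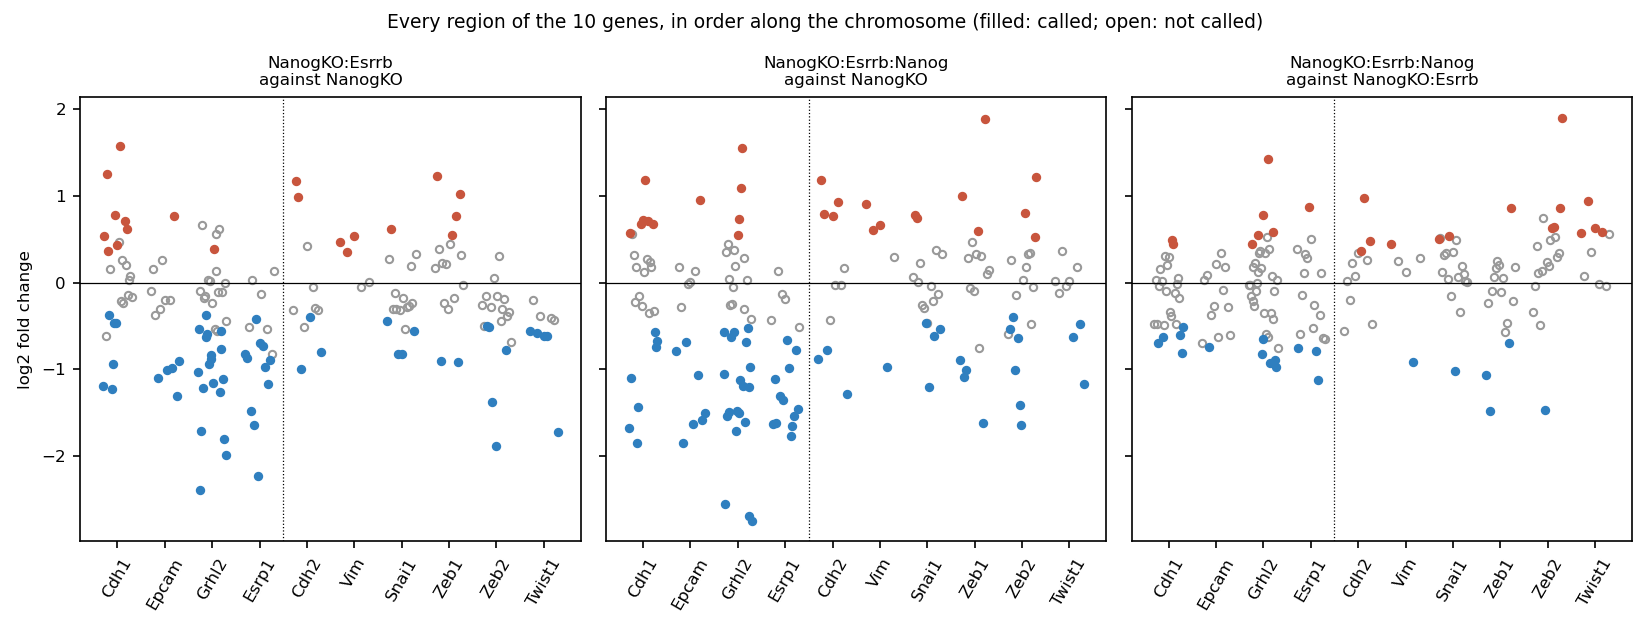
Log2 fold change of each of the 166 regions in the 3 comparisons, in chromosomal order within each gene; filled points were called (red higher, blue lower) and open points were not. Changes run from -2.74 to 1.88 in NanogKO:Esrrb:Nanog against NanogKO, and most genes hold filled points on both sides of 0.

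Cdh1 (gene 12550, chr8:106603350-106670247) encodes E-cadherin, the adhesion molecule of epithelial cells. Its 25 regions moved both ways, with 8 higher and 6 lower in NanogKO:Esrrb and 6 higher and 7 lower in NanogKO:Esrrb:Nanog, each against NanogKO, and 2 higher and 5 lower with Nanog. In the fits that left out a library, 5 and 4 of the calls in NanogKO:Esrrb and 4 and 6 of those in NanogKO:Esrrb:Nanog were kept throughout. The 5 lower calls with Nanog became 3 without NanogKO:Esrrb replicate 1 or 2 or NanogKO:Esrrb:Nanog replicate 2, and the 2 higher calls 0 without NanogKO:Esrrb replicate 1 or 3. The summed level over all 25 regions was 203.8 ± 12.4 CPM (SD, n = 3) in NanogKO, 192.8 ± 20.1 in NanogKO:Esrrb and 194.5 ± 15.4 in NanogKO:Esrrb:Nanog, and the libraries of the 3 groups overlapped.

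The Cdh1 region with the smallest p in every comparison lay inside the gene, 7426 bp from its low end (chr8:106610776-106611339). It had 24.5, 22.6 and 17.9 CPM in the NanogKO libraries, 9.64, 9.26 and 8.98 in those of NanogKO:Esrrb and 5.68, 4.84 and 7.32 in those of NanogKO:Esrrb:Nanog. The 3 groups did not overlap, and each library with Nanog lay below each library without it. The log2 fold change was -1.22 ± 0.14 (SE, adjusted p = 1.46e-07) in NanogKO:Esrrb and -1.85 ± 0.15 (7.57e-11) in NanogKO:Esrrb:Nanog, relative to NanogKO, and -0.63 ± 0.15 (0.00298) with Nanog. A neighbouring region (chr8:106611694-106611874) also fell, by 0.94 and 1.43 on the log2 scale against NanogKO, as did a region 21508 bp below the gene (chr8:106581441-106581842), by 1.19 and 1.67. These and the rising regions named next were picked after their values were seen.

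Other regions inside Cdh1 rose. At chr8:106629583-106629889, NanogKO libraries had 1.34, 1.34 and 1.44 CPM, NanogKO:Esrrb libraries 3.94, 5.88 and 2.47 CPM, and NanogKO:Esrrb:Nanog libraries 2.67, 3.46 and 3.27 CPM. Every library with Esrrb lay above every NanogKO library (log2 fold changes of 1.57 ± 0.24, adjusted p = 8.06e-06, and 1.18 ± 0.24, 0.000222). The strongly open region at chr8:106619469-106620109 rose from 27.8, 22.9 and 27.0 CPM to 51.3, 40.0 and 36.8 CPM with Esrrb and Nanog (0.72 ± 0.12, adjusted p = 2.49e-05).

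At the low end of Cdh1, from which the gene is transcribed, the region chr8:106603160-106604450 had 53.1, 42.7 and 45.9 CPM in the NanogKO libraries, 38.1, 37.4 and 33.7 in those of NanogKO:Esrrb and 45.2, 40.6 and 35.6 in those of NanogKO:Esrrb:Nanog. It was lower in NanogKO:Esrrb, with no overlap (-0.38 ± 0.12, adjusted p = 0.0129). That call was lost without NanogKO replicate 1 (-0.28, adjusted p = 0.0969) or NanogKO:Esrrb replicate 3 (-0.32, 0.0719). In NanogKO:Esrrb:Nanog the change of -0.22 ± 0.12 did not pass (adjusted p = 0.117), but did without replicate 1 of that group (-0.31, 0.0375) and under both other scalings.

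Epcam (gene 17075, chr17:87635979-87651127) encodes a surface glycoprotein of epithelial and embryonic stem cells. Of its 13 regions 5 were lower and 1 higher in NanogKO:Esrrb, and 7 lower and 1 higher in NanogKO:Esrrb:Nanog, against NanogKO, and 1 was lower in NanogKO:Esrrb:Nanog than in NanogKO:Esrrb. The region over the gene start (chr17:87635620-87636979), which covers the printed window with both E-boxes, had 41.4, 35.5 and 35.5 CPM in the NanogKO libraries, 20.5, 15.6 and 20.7 in those of NanogKO:Esrrb and 19.0, 17.8 and 16.9 in those of NanogKO:Esrrb:Nanog. All NanogKO libraries lay well above the other 6. It was 1.98-fold lower in NanogKO:Esrrb (-0.98 ± 0.12, adjusted p = 4.09e-07) and 2.09-fold lower in NanogKO:Esrrb:Nanog (-1.06 ± 0.12, 5.3e-08), and the change with Nanog was -0.08 ± 0.12 (adjusted p = 0.653).

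The lower call with Nanog was at a region 25942 bp below Epcam (chr17:87609585-87610037). Its level was 6.68, 7.20 and 5.11 CPM in the NanogKO libraries, 2.78, 2.91 and 3.13 in those of NanogKO:Esrrb and 1.62, 2.02 and 1.68 in those of NanogKO:Esrrb:Nanog, without overlap between groups. The changes were -1.10 ± 0.17 (adjusted p = 1.19e-05) and -1.85 ± 0.18 (4.2e-09) against NanogKO, and -0.74 ± 0.19 (0.00539) with Nanog. The rising region, inside the gene (chr17:87640251-87640545), went up by 0.77 ± 0.20 (adjusted p = 0.00322) and 0.95 ± 0.20 (0.000305).

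Grhl2 (gene 252973, chr15:37232821-37363569) encodes a transcription factor that activates epithelial genes, Cdh1 among them, and opposes Zeb1. Of its 35 regions 18 fell and 1 rose in NanogKO:Esrrb, 14 of the falls in every fit with a library left out, and the rise not. In NanogKO:Esrrb:Nanog 19 fell and 4 rose against NanogKO, 15 and 3 of them in every such fit. With Nanog, 5 rose and 5 fell, and 3 of the rises and none of the falls were kept throughout. The 5 falls became 0 without NanogKO:Esrrb replicate 3, 3 without replicate 1 of that group, and 2 without NanogKO:Esrrb:Nanog replicate 1 or 2, and the 5 rises became 3 without NanogKO:Esrrb replicate 1. The summed level was 188.9 ± 3.41 CPM (SD, n = 3) in NanogKO, 132.2 ± 10.0 in NanogKO:Esrrb and 148.4 ± 7.20 in NanogKO:Esrrb:Nanog, with no overlap between any pair of groups.

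Over the low end of Grhl2, where transcription begins, the region chr15:37232320-37233431 had 25.3, 24.1 and 24.6 CPM in the NanogKO libraries, 17.4, 14.1 and 16.3 in those of NanogKO:Esrrb and 15.7, 15.1 and 17.0 in those of NanogKO:Esrrb:Nanog. It fell in both groups with Esrrb by the same amount (-0.63 ± 0.11 each, adjusted p = 8.51e-05 and 5.41e-05) and the change with Nanog was 0.00 ± 0.11 (0.999). The adjoining and equally open region chr15:37233702-37234733 was lower in NanogKO:Esrrb (-0.37 ± 0.13, adjusted p = 0.0232), a call lost without NanogKO replicate 1 or 3 or NanogKO:Esrrb replicate 1 or 2 (adjusted p = 0.0578 to 0.135).

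Larger falls lay away from the start of Grhl2. At 34245 bp below the gene (chr15:37198020-37198576), the level was 10.4, 11.5 and 10.6 CPM in the NanogKO libraries, 2.64, 3.58 and 3.69 in those of NanogKO:Esrrb and 3.34, 3.52 and 4.34 in those of NanogKO:Esrrb:Nanog. NanogKO libraries stood apart from all others, 3.28-fold above NanogKO:Esrrb (-1.71 ± 0.16, adjusted p = 3.49e-09) and 2.90-fold above NanogKO:Esrrb:Nanog (-1.53 ± 0.16, 8.2e-09). Inside the gene, chr15:37347338-37347932 had 3.90, 3.80 and 4.36 CPM, then 1.29, 0.871 and 1.30 CPM, then 0.684, 0.352 and 0.761 CPM, in the same order of groups. The 3 groups did not overlap, at -1.80 ± 0.23 (adjusted p = 5.94e-07) and -2.69 ± 0.25 (1.34e-09) against NanogKO. The further fall with Nanog (-0.89 ± 0.27, adjusted p = 0.0163) was lost without NanogKO:Esrrb replicate 1 (0.0623) or 3 (0.0704) or NanogKO:Esrrb:Nanog replicate 2 (0.0837). This region has a peak in the NanogKO list alone, so it was counted through the group where it is high.

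Against this trend, the Grhl2 region chr15:37262367-37262854 was most open with Nanog. It had 9.93, 7.61 and 9.87 CPM in the NanogKO libraries, 10.2, 5.33 and 7.69 in those of NanogKO:Esrrb and 14.8, 11.3 and 13.7 in those of NanogKO:Esrrb:Nanog. The rise with Nanog was 0.78 ± 0.17 (adjusted p = 0.00191), with no overlap. Against NanogKO the rise was 0.54 ± 0.17 (0.0101), a call lost without NanogKO replicate 2 (0.42, adjusted p = 0.076) or NanogKO:Esrrb:Nanog replicate 1 (0.46, 0.0539).

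Esrp1 (gene 207920, chr4:11331933-11386783) encodes a splicing regulator that favours the epithelial forms of transcripts. All calls against NanogKO were falls: 11 of its 17 regions in NanogKO:Esrrb and 12 in NanogKO:Esrrb:Nanog, of which 10 and 11 were kept in every fit with a library left out. Its summed level was 87.8 ± 2.17 CPM (SD, n = 3) in NanogKO, 49.4 ± 4.15 in NanogKO:Esrrb and 53.5 ± 3.65 in NanogKO:Esrrb:Nanog. NanogKO did not overlap with either group, which overlapped with each other.

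The largest fall in NanogKO:Esrrb was 2311 bp beyond the high end of Esrp1, the end from which the gene is transcribed (chr4:11389094-11389751). NanogKO libraries had 15.3, 16.3 and 15.7 CPM, NanogKO:Esrrb libraries 3.10, 3.05 and 3.97 CPM, and NanogKO:Esrrb:Nanog libraries 5.29, 4.64 and 8.40 CPM. No groups overlapped, and the group with Nanog lay between the others. The region was 4.67-fold lower in NanogKO:Esrrb (-2.22 ± 0.17, adjusted p = 2.17e-10) and 2.55-fold lower in NanogKO:Esrrb:Nanog (-1.35 ± 0.17, 1.78e-07), and it rose with Nanog (0.87 ± 0.18, 0.000907).

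Closer to the start of Esrp1, 430 bp beyond the high end, the most open region (chr4:11387213-11388539) changed less. It had 27.8, 26.1 and 24.6 CPM in the NanogKO libraries, 19.8, 18.0 and 20.9 in those of NanogKO:Esrrb and 23.4, 26.8 and 21.3 in those of NanogKO:Esrrb:Nanog. It fell in NanogKO:Esrrb without overlap (-0.42 ± 0.12, adjusted p = 0.0055), and with Nanog it stood 0.28 ± 0.12 higher, which did not pass (0.0747) but did with the replicate block (0.0456) and without NanogKO:Esrrb:Nanog replicate 3 (0.36, adjusted p = 0.018). A region still nearer to the high end was called lower in both groups with Esrrb against NanogKO. Inside the gene, chr4:11369804-11370945 fell from 7.05, 7.62 and 7.93 CPM to 2.38, 2.41 and 3.32 CPM in NanogKO:Esrrb and to 2.16, 1.70 and 3.39 CPM with Nanog as well (-1.48 ± 0.20, adjusted p = 1.16e-06, and -1.61 ± 0.20, 1.78e-07).

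**Figure D3:**
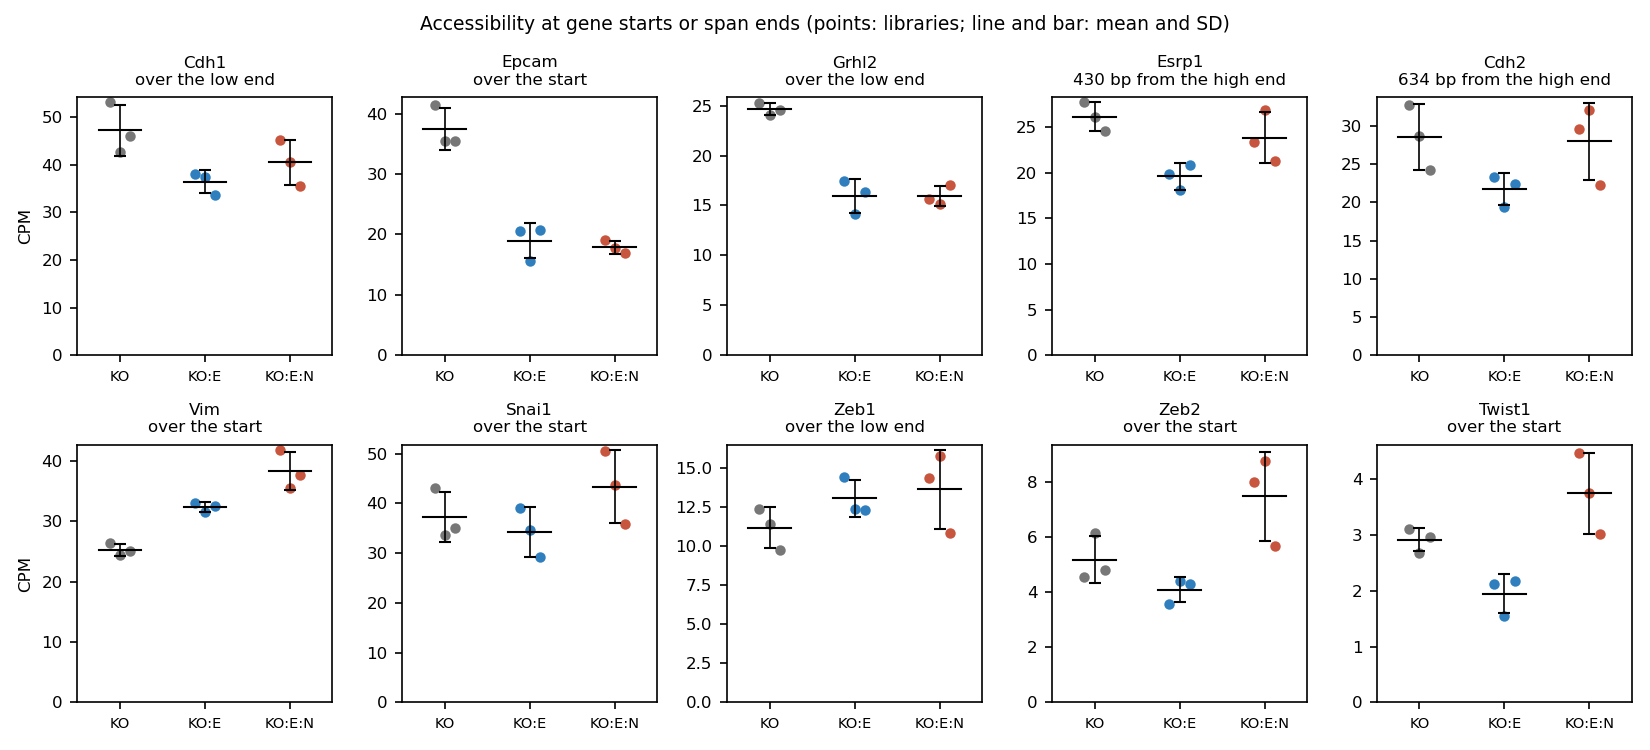
CPM per library (points) with mean and SD per group at a region by the start of each gene. Groups are NanogKO (KO), NanogKO:Esrrb (KO:E) and NanogKO:Esrrb:Nanog (KO:E:N). The regions lie over the gene start or span end, except at Esrp1 and Cdh2. For these genes the most open region is shown, 430 and 634 bp from the high end. Both also have a nearer region, not shown here. That of Esrp1 was called lower in both groups with Esrrb against NanogKO. That of Cdh2, 233 bp away, rose with Nanog (log2 fold change 0.98 ± 0.20). NanogKO lies above both other groups at Epcam and Grhl2 and below both at Vim.

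**Figure D4:**
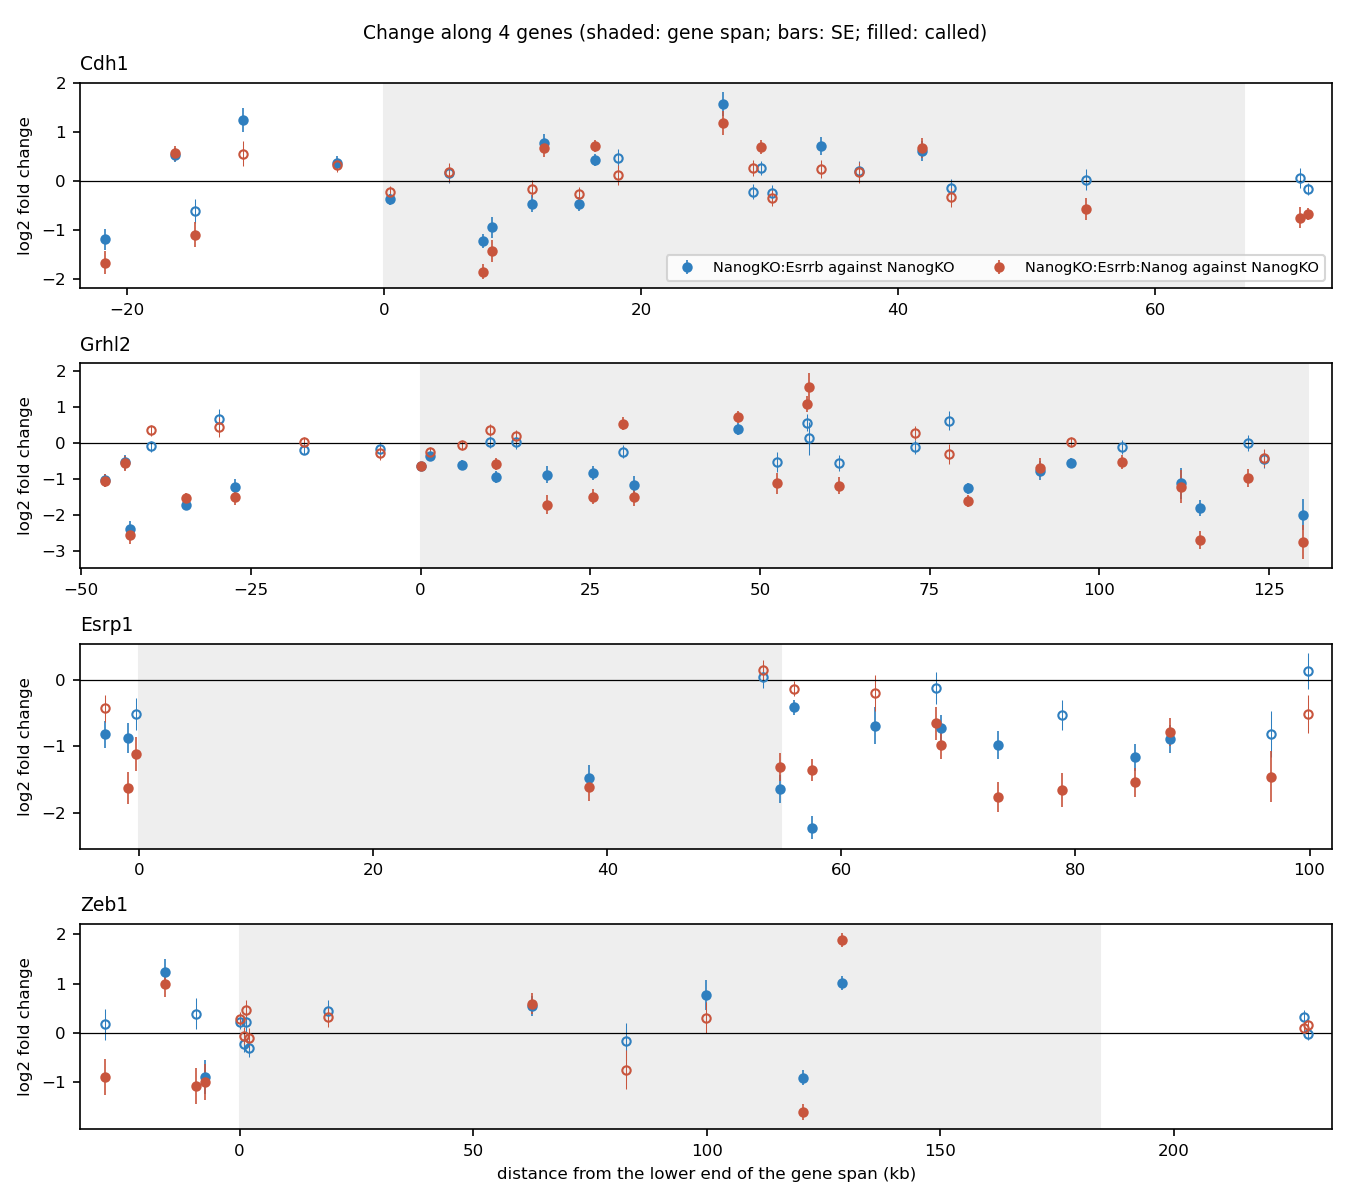
Log2 fold change with SE of each region along Cdh1, Grhl2, Esrp1 and Zeb1, by distance in kb from the low end of the gene span (shaded), for NanogKO:Esrrb (blue) and NanogKO:Esrrb:Nanog (red) against NanogKO; filled points were called. Called points along Esrp1 all lie below 0, and Cdh1 and Zeb1 hold called points on both sides.

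At the miR-200 locus on chromosome 4, 1 of the 4 regions within 10 kb of the microRNA genes was called. It lay 3122 bp upstream of Mir200b, the first of the 3 on the minus strand (chr4:156058872-156060259). NanogKO libraries had 44.5, 40.8 and 43.5 CPM, NanogKO:Esrrb libraries 19.0, 17.4 and 20.3 CPM, and NanogKO:Esrrb:Nanog libraries 18.0, 19.2 and 19.6 CPM. NanogKO stood apart from the other groups, which overlapped. The change was -1.18 ± 0.11 in both (adjusted p = 3.88e-09 and 1.39e-09) and 0.00 ± 0.11 with Nanog (0.999), which is the pattern seen over the start of Epcam. The region chr4:156050572-156050907 did not pass in NanogKO:Esrrb:Nanog (-0.49 ± 0.22, adjusted p = 0.0696), and passed without replicate 3 of that group (-0.79, 0.00576), without TMM factors (0.0413) and with upper-quartile factors (0.0246). The region chr4:156063895-156064653 did not pass with Nanog (0.31 ± 0.12, 0.0625), and passed with DESeq2 (0.0352) and with the replicate block (0.0457).

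Around Mir200c and Mir141 on chromosome 6 the 5 regions split. The region 329 bp from Mir200c (chr6:124718719-124719568) fell from 11.3, 11.3 and 13.3 CPM to 6.52, 7.17 and 7.10 CPM in NanogKO:Esrrb and to 7.78, 8.48 and 7.42 CPM with Nanog as well (-0.79 ± 0.13, adjusted p = 2.42e-05, and -0.60 ± 0.13, 0.000371). A sparsely covered region 9873 bp away, which overlaps the gene Ptpn6 (chr6:124728263-124728366), rose from 0.293, 0.294 and 0.162 CPM to 0.576, 1.00 and 0.922 CPM and to 2.28, 1.55 and 1.52 CPM (1.74 ± 0.34, adjusted p = 0.000201, and 2.83 ± 0.33, 5.4e-08). Elsewhere at this locus, the changes called in NanogKO:Esrrb:Nanog were 0.31, 0.38 and -0.42. In that order, these regions overlap Emg1 and Phb2, lie 28 bp from Phb2, and overlap both microRNA genes. Each call was lost without replicate 2 (adjusted p = 0.0761, 0.134 and 0.097) or 1 (0.216, 0.053 and 0.0825) of that group. Each was also lost without NanogKO replicate 3 (0.0627, 0.0906 and 0.0563). The calls of 0.31 and 0.38 were lost without NanogKO replicate 1 and under both other scalings as well, and those of 0.31 and -0.42 without NanogKO replicate 2. Which genes the regions at this locus act on was not tested.

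Vim (gene 22352, chr2:13574311-13582826) encodes vimentin, an intermediate filament protein of mesenchymal cells that embryonic stem cells also contain. It was the only member whose summed level was higher in both groups with Esrrb without overlap: 43.8 ± 1.53 CPM (SD, n = 3) in NanogKO, 56.1 ± 0.216 in NanogKO:Esrrb and 65.5 ± 3.91 in NanogKO:Esrrb:Nanog. Of its 5 regions 3 were higher and none lower in NanogKO:Esrrb, and 3 higher and 1 lower in NanogKO:Esrrb:Nanog, against NanogKO. The 4 calls in NanogKO:Esrrb:Nanog held in every fit with a library left out.

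Over the Vim start, the region chr2:13573463-13575000, which covers the printed window, had 26.4, 24.4 and 25.1 CPM in the NanogKO libraries, 33.1, 31.5 and 32.6 in those of NanogKO:Esrrb and 41.8, 35.6 and 37.7 in those of NanogKO:Esrrb:Nanog. The groups did not overlap, and their levels stood higher in that order. The change was 0.60 ± 0.11 (adjusted p = 4.46e-05) in NanogKO:Esrrb:Nanog and 0.36 ± 0.11 (0.0106) in NanogKO:Esrrb, the latter lost without NanogKO replicate 2 (0.33, adjusted p = 0.0571). With Nanog the difference of 0.24 ± 0.11 did not pass (0.0957), and it passed with the replicate block (0.0409).

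Just below Vim, at 1749 bp (chr2:13572217-13572562), the level was 4.66, 7.90 and 7.42 CPM in the NanogKO libraries, 8.70, 10.6 and 8.37 in those of NanogKO:Esrrb and 12.7, 12.3 and 12.6 in those of NanogKO:Esrrb:Nanog, without overlap. The rise in NanogKO:Esrrb:Nanog was 0.91 ± 0.16 (adjusted p = 2.47e-05). That in NanogKO:Esrrb (0.46 ± 0.16, adjusted p = 0.0207) was lost without NanogKO replicate 1 (0.183) or NanogKO:Esrrb replicate 2 (0.124), and that with Nanog (0.44 ± 0.15, 0.0354) was lost without NanogKO:Esrrb replicate 1 or 3 or NanogKO:Esrrb:Nanog replicate 1 or 2 (0.0707 to 0.137) and under both other scalings. Inside the gene, chr2:13578779-13578973 went the other way and fell when Nanog was present, from 2.76, 2.09 and 3.25 CPM to 1.39, 1.14 and 1.69 CPM (-0.92 ± 0.22, adjusted p = 0.0035).

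Cdh2 (gene 12558, chr18:16588877-16809246) encodes N-cadherin, which replaces E-cadherin in the transition. Its 11 regions moved both ways, with 2 higher and 3 lower in NanogKO:Esrrb, 4 higher and 3 lower in NanogKO:Esrrb:Nanog, and 3 higher and none lower with Nanog. The lower calls in NanogKO:Esrrb became 1 without NanogKO replicate 1. The 3 higher calls with Nanog became 1 in the 6 fits that left out NanogKO replicate 2, any NanogKO:Esrrb library or NanogKO:Esrrb:Nanog replicate 1 or 2, and under both other scalings 1 region was higher and 1 lower. A region 57 bp below the span, at the end where transcription stops (chr18:16588486-16588820), rose from 1.49, 1.19 and 1.18 CPM to 2.88, 2.56 and 3.17 CPM in NanogKO:Esrrb and to 2.53, 3.46 and 2.80 CPM with Nanog as well (1.16 ± 0.21, adjusted p = 5.97e-05, and 1.19 ± 0.21, 3.12e-05). Inside the gene, chr18:16614490-16615216 had 4.83, 5.05 and 4.05 CPM, then 9.30, 10.7 and 7.57 CPM, then 8.44, 6.13 and 9.32 CPM. Every library with Esrrb was above every NanogKO library (0.99 ± 0.16, adjusted p = 2.71e-05, and 0.79 ± 0.17, 0.000282).

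Near the start of Cdh2, at the high end of the span, the group with Nanog stood apart at a short region but not at its more open neighbour. The region chr18:16808767-16809013 had 2.49, 2.77 and 2.62 CPM in the NanogKO libraries, 2.88, 2.28 and 2.47 in those of NanogKO:Esrrb and 4.98, 6.57 and 3.60 in those of NanogKO:Esrrb:Nanog. The first pair of groups overlapped, and the group with Nanog lay above both (0.93 ± 0.20, adjusted p = 0.00032, and 0.98 ± 0.20, 0.000854). At the widely open neighbour chr18:16806817-16808612, the fall in NanogKO:Esrrb (-0.40 ± 0.13, adjusted p = 0.0212) was lost without NanogKO replicate 1 (-0.29, 0.147) or 2 (0.06) or NanogKO:Esrrb replicate 2 (0.111). The rise there with Nanog (0.36 ± 0.13, 0.0473) was lost in 6 of the 9 fits that left out a library (adjusted p up to 0.239, without NanogKO:Esrrb:Nanog replicate 2). At this neighbour NanogKO:Esrrb:Nanog overlapped NanogKO (-0.03 ± 0.13, adjusted p = 0.864).

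Snai1 (gene 20613, chr2:167538195-167542814) encodes SNAIL, a repressor of Cdh1 and a target of its own protein. Few of its regions were called against NanogKO, with 1 higher and 4 lower of 17 in NanogKO:Esrrb and 2 higher and 4 lower in NanogKO:Esrrb:Nanog, the 4 becoming 2 without NanogKO replicate 2 or NanogKO:Esrrb:Nanog replicate 2. Over the start, chr2:167537664-167538316, which covers the printed window, had 43.1, 33.7 and 35.0 CPM in the NanogKO libraries, 39.0, 34.6 and 29.1 in those of NanogKO:Esrrb and 50.6, 43.6 and 35.9 in those of NanogKO:Esrrb:Nanog. The 3 groups overlapped, and no comparison passed (-0.12 ± 0.13, 0.22 ± 0.13 and 0.34 ± 0.13, adjusted p = 0.507, 0.174 and 0.0604). The difference with Nanog passed with the replicate block (0.00713), without NanogKO:Esrrb replicate 1 (0.0412) and without NanogKO:Esrrb:Nanog replicate 3 (0.47, adjusted p = 0.00588). Without that last library the difference from NanogKO also passed (0.34, 0.0234).

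Within Snai1, the region chr2:167540155-167540417 had 7.07, 5.79 and 8.19 CPM in the NanogKO libraries, 4.53, 3.13 and 4.21 in those of NanogKO:Esrrb and 6.88, 4.31 and 5.83 in those of NanogKO:Esrrb:Nanog. It fell in NanogKO:Esrrb without overlap (-0.83 ± 0.18, adjusted p = 0.000615). The partial return with Nanog (0.53 ± 0.18, 0.0333) was lost without NanogKO:Esrrb replicate 2 (0.161) or 3 (0.0573), without NanogKO:Esrrb:Nanog replicate 1 (0.195), and under both other scalings. Above the gene by 3873 bp, chr2:167546687-167546996 fell in NanogKO:Esrrb:Nanog (-1.20 ± 0.30, adjusted p = 0.0014), and its fall with Nanog (-1.02 ± 0.30, 0.0134) was lost without NanogKO:Esrrb replicate 3 (0.102) or NanogKO:Esrrb:Nanog replicate 3 (0.0617).

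Zeb1 (gene 21417, chr18:5591327-5775468) encodes a zinc finger repressor of Cdh1 and of the miR-200 genes. It held the largest rise of any member region in NanogKO:Esrrb:Nanog against NanogKO, and a fall nearby. The rising region, inside the gene (chr18:5720217-5720573), had 3.44, 3.64 and 3.75 CPM in the NanogKO libraries, 6.62, 8.31 and 7.03 in those of NanogKO:Esrrb and 14.2, 13.4 and 12.4 in those of NanogKO:Esrrb:Nanog. The groups formed 3 separate steps. The level was 2.03-fold higher in NanogKO:Esrrb (1.02 ± 0.14, adjusted p = 2.14e-06) and 3.69-fold higher in NanogKO:Esrrb:Nanog (1.88 ± 0.14, 2.73e-11), and it rose with Nanog (0.86 ± 0.13, 5.68e-05).

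The falling Zeb1 region, chr18:5711668-5712258, was picked after its values were seen. It had 13.1, 13.1 and 12.7 CPM in the NanogKO libraries, 7.21, 5.31 and 8.11 in those of NanogKO:Esrrb and 4.77, 3.52 and 4.34 in those of NanogKO:Esrrb:Nanog, again without overlap. The changes were -0.92 ± 0.15 (adjusted p = 2.17e-05), -1.62 ± 0.16 (2.62e-09) and, with Nanog, -0.70 ± 0.16 (0.00229). Neither region lost a call in a fit that left out a library or under another scaling.

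At the low end of Zeb1, where transcription begins, chr18:5591095-5591946 had 12.4, 11.4 and 9.77 CPM in the NanogKO libraries, 14.4, 12.4 and 12.3 in those of NanogKO:Esrrb and 14.3, 15.7 and 10.8 in those of NanogKO:Esrrb:Nanog. All groups overlapped and no comparison passed, with 0.22 and 0.28 against NanogKO (adjusted p = 0.215 and 0.0942). The latter passed without NanogKO:Esrrb:Nanog replicate 3 (0.43, adjusted p = 0.00725). Among all 16 regions 4 rose and 2 fell in NanogKO:Esrrb, and 3 rose and 4 fell in NanogKO:Esrrb:Nanog. The 4 rises became 2 without NanogKO replicate 2 or 3 or NanogKO:Esrrb replicate 1 or 3. In NanogKO:Esrrb:Nanog the 4 falls became 2 without NanogKO replicate 2 or 3 and 1 without NanogKO:Esrrb:Nanog replicate 1, and the 3 rises became 5 without replicate 3 of that group.

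Zeb2 (gene 24136, chr2:44983512-45117442) encodes the second ZEB repressor, which is also active in neural crest and neurons. Its 18 regions gave 5 falls and no rise in NanogKO:Esrrb, 6 falls and 3 rises in NanogKO:Esrrb:Nanog, and 4 rises and 1 fall with Nanog. Without NanogKO replicate 2, both counts of falls against NanogKO became 3, and without NanogKO replicate 1 or NanogKO:Esrrb:Nanog replicate 1 the 3 rises became 1. The start region at the high end (chr2:45117232-45117559) had 4.56, 6.14 and 4.81 CPM in the NanogKO libraries, 3.58, 4.39 and 4.30 in those of NanogKO:Esrrb and 7.98, 8.74 and 5.67 in those of NanogKO:Esrrb:Nanog. The group with Nanog was above NanogKO:Esrrb without overlap (0.86 ± 0.17, adjusted p = 0.00078). Its rise over NanogKO, which it overlapped (0.52 ± 0.17, 0.0127), was lost without NanogKO replicate 1 (0.0674) or 3 (0.0526) or NanogKO:Esrrb:Nanog replicate 1 (0.0516) or 2 (0.0816). Another start region of Zeb2, 7188 bp from the high end (chr2:45109954-45110254), passed in no comparison. Its changes were -0.19 ± 0.20 and 0.34 ± 0.20 against NanogKO and 0.53 ± 0.20 with Nanog (adjusted p = 0.491, 0.169 and 0.0555). The last passed with DESeq2 (0.0493).

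Inside Zeb2 the largest fall was at chr2:45067239-45067500, from 2.00, 2.39 and 2.01 CPM to 0.497, 0.502 and 0.731 CPM in NanogKO:Esrrb and to 0.726, 0.646 and 0.674 CPM with Nanog as well (-1.88 ± 0.25, adjusted p = 1.2e-06, and -1.64 ± 0.25, 4.86e-06). That region, too, was counted through a peak in the NanogKO list alone. A short region 40984 bp above the gene (chr2:45158426-45158465) was open mainly with Nanog, at 0.317, 0.349 and 0.365 CPM, then 0.179, 0.352 and 0.104 CPM, then 0.746, 0.646 and 0.986 CPM. The rise with Nanog was 1.90 ± 0.37 (adjusted p = 0.000607), and its level is low.

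Twist1 (gene 22160, chr12:33957671-33959831) encodes a basic helix-loop-helix factor of mesoderm and neural crest. All its calls against NanogKO were falls, 5 of 9 in NanogKO:Esrrb and 3 in NanogKO:Esrrb:Nanog, and its 4 calls with Nanog were rises. In every fit with a library left out, 3, 2 and 2 of these were kept. The 5 falls became 3 without NanogKO:Esrrb replicate 2, and the 4 rises 2 without that library or NanogKO:Esrrb:Nanog replicate 1. Under both other scalings the rises also numbered 2. Inside the gene, chr12:33958278-33958689 (chosen after its values were seen) had 9.44, 9.96 and 9.43 CPM in the NanogKO libraries, 5.82, 5.96 and 7.10 in those of NanogKO:Esrrb and 9.85, 11.3 and 8.11 in those of NanogKO:Esrrb:Nanog. It fell in NanogKO:Esrrb (-0.61 ± 0.14, adjusted p = 0.00115) and stood at the NanogKO level, overlapping it, with Nanog (0.01 ± 0.14, 0.943), a rise of 0.62 ± 0.14 between the groups with Esrrb (0.00243).

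Over the Twist1 start, chr12:33957583-33957762 had 3.10, 2.68 and 2.96 CPM in the NanogKO libraries, 2.13, 1.54 and 2.17 in those of NanogKO:Esrrb and 4.46, 3.75 and 3.01 in those of NanogKO:Esrrb:Nanog. It was higher with Nanog without overlap (0.94 ± 0.20, adjusted p = 0.0013). The fall in NanogKO:Esrrb (-0.58 ± 0.20, 0.023) was lost without NanogKO replicate 1 (0.0753) or 3 (0.0582) or NanogKO:Esrrb replicate 2 (0.133). Without NanogKO:Esrrb:Nanog replicate 3, the difference of that group from NanogKO passed (0.50, 0.0369, against 0.36 and 0.128 with all libraries). The most open Twist1 region, 304 bp below the span (chr12:33956746-33957367), was called in no comparison. Its changes were -0.20 ± 0.14 and -0.12 ± 0.14 against NanogKO and 0.08 ± 0.14 with Nanog (adjusted p = 0.255, 0.475 and 0.706). The largest fall was 8872 bp above the gene (chr12:33968703-33968817), from 1.61, 1.45 and 1.4 CPM to 0.437, 0.469 and 0.435 CPM in NanogKO:Esrrb (-1.72 ± 0.27, adjusted p = 9.52e-06) and 0.560, 0.734 and 0.692 CPM in NanogKO:Esrrb:Nanog (-1.17 ± 0.26, 0.000502). This region, too, has a peak in the NanogKO list alone, so a fall from NanogKO is in part built into its choice.

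**Figure D5:**
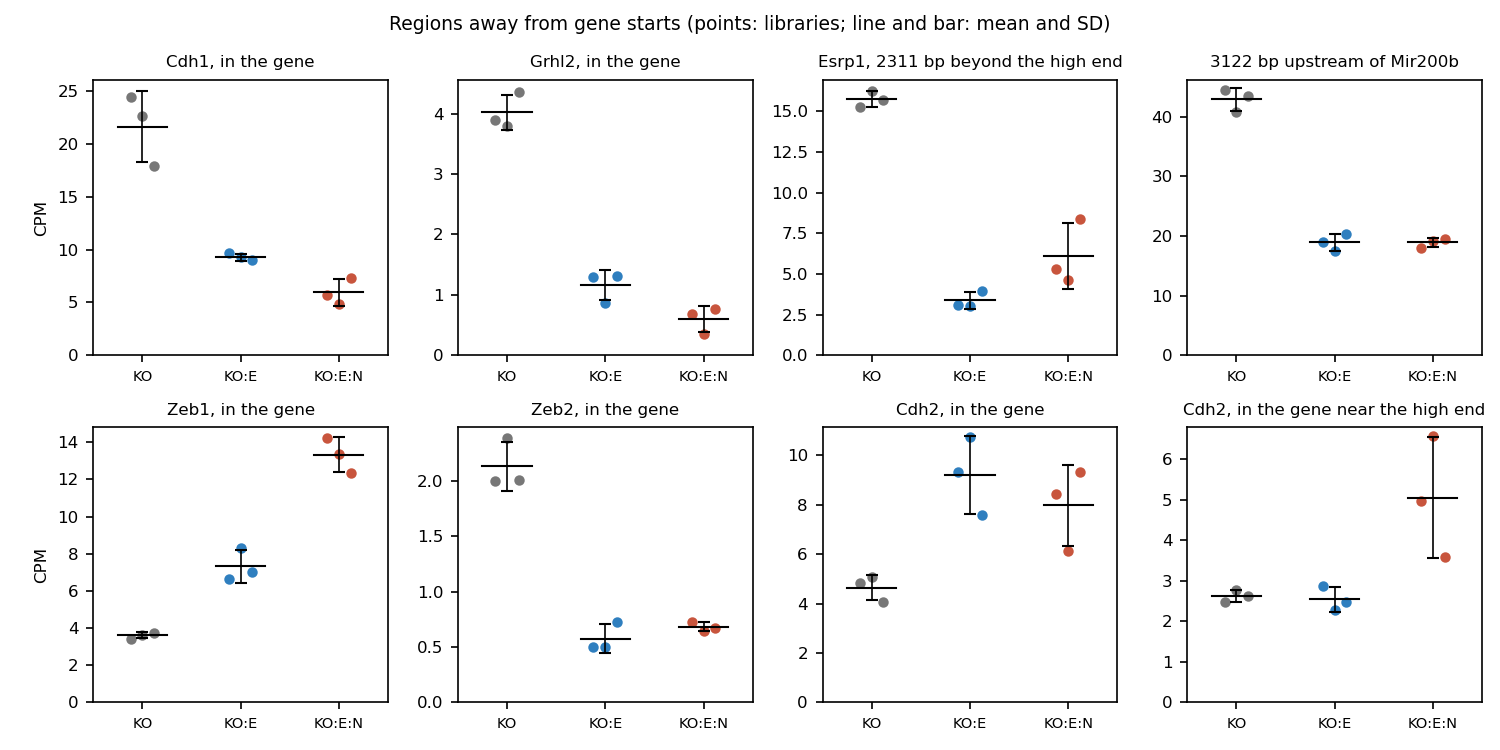
CPM per library (points) with mean and SD per group at 8 regions, with group names shortened as KO (NanogKO), KO:E (NanogKO:Esrrb) and KO:E:N (NanogKO:Esrrb:Nanog). They lie away from gene starts except for the last, 233 bp from the high end of Cdh2, where that gene starts. The Cdh1, Grhl2, Esrp1, Mir200b and Zeb2 regions are highest in NanogKO, and the Zeb1 region steps up from 3.44 to 3.75 CPM in NanogKO to 12.4 to 14.2 CPM with Nanog.

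Per kb of region, so that genes can be set side by side, the start regions of the epithelial genes in NanogKO stood at 36.6 CPM for Cdh1, 27.5 for Epcam, 22.2 for Grhl2 and 19.7 for Esrp1. Snai1 was the most open of all at 57.0 CPM per kb, and Vim (16.5), Twist1 (16.2), Cdh2 (15.9), Zeb2 (15.8) and Zeb1 (13.1) followed. In NanogKO:Esrrb:Nanog the order changed to Snai1 (66.5), Cdh1 (31.4), Vim (24.9), Zeb2 (22.8), Twist1 (20.8), Esrp1 (18.0), Zeb1 (16.0), Cdh2 (15.6), Grhl2 (14.3) and Epcam (13.2). Epcam thus went from the third place to the last and Vim from the sixth to the third, with NanogKO and NanogKO:Esrrb:Nanog libraries not overlapping at either gene. The values of Esrp1 and Cdh2 are those of regions 430 and 634 bp from the high end. The place of Cdh2 depends on that choice, since its region 233 bp from that end stood at 10.6 CPM per kb in NanogKO and 20.4 in NanogKO:Esrrb:Nanog. Esrp1 also has a nearer region, called lower in both groups with Esrrb, and the place of Esrp1 by that region was not examined. Neighbours in each order differ by little, and their differences were not tested.

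A wider list of 25 epithelial genes, 24 of them with regions, gave similar numbers of higher and lower calls against NanogKO in total, though not gene by gene. Its 207 regions gave 39 higher and 44 lower calls in NanogKO:Esrrb, 55 higher and 47 lower in NanogKO:Esrrb:Nanog, and 41 higher and 23 lower with Nanog (26 higher without TMM factors or with upper-quartile factors), with medians of -0.07, 0.01 and 0.10. The calls amount to 40.1%, 49.3% and 30.9% of its regions, beside 37.0%, 49.3% and 24.6% of all regions. Of the 39 higher calls in NanogKO:Esrrb, Grhl3 held 14, Dsp 6 and Dsg2 5. Most other genes of the list had more lower than higher calls there. Krt8 (2 higher, 0 lower), Grhl1 (2 and 0) and St14 (4 and 3) went the other way. Grhl3, a paralogue of Grhl2, went opposite to it, with 14 of 23 regions higher and none lower in NanogKO:Esrrb and 17 higher and none lower in NanogKO:Esrrb:Nanog. Its region chr4:135567876-135568130 rose from 0.951, 0.974 and 0.912 CPM to 3.30, 4.62 and 3.08 CPM and to 5.62, 6.78 and 4.38 CPM (1.95 ± 0.22, adjusted p = 6.81e-08, and 2.55 ± 0.22, 2.4e-10). Cdh3, which encodes P-cadherin and neighbours Cdh1, had a region 6757 bp outside its span (chr8:106563668-106564271) that fell from 11.4, 12.5 and 12.0 CPM to 2.92, 4.79 and 3.74 CPM and to 1.76, 2.00 and 2.28 CPM (-1.65 ± 0.16, adjusted p = 1.14e-08, and -2.57 ± 0.18, 5.4e-12). Near Dsp, which encodes desmoplakin of the desmosome, regions moved both ways: chr13:38145068-38145588 by -2.84 ± 0.21 in NanogKO:Esrrb (adjusted p = 7.38e-11) and chr13:38123699-38124188 by 2.34 ± 0.21 in NanogKO:Esrrb:Nanog (7.57e-10). Of this list the largest fall in NanogKO:Esrrb:Nanog against NanogKO was near Cldn4 (chr5:134952896-134953300, -2.64 ± 0.25, adjusted p = 1.39e-09) and the largest with Nanog was near Ocln (chr13:100494498-100494661, -1.38 ± 0.28, 0.000832), both genes of tight junctions.

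The wider mesenchymal list of 25 genes had 246 regions, with 47 higher and 26 lower in NanogKO:Esrrb, 57 higher and 43 lower in NanogKO:Esrrb:Nanog, and 28 higher and 26 lower with Nanog, and medians of 0.00, 0.07 and 0.05. The 3 counts of calls amount to 29.7%, 40.7% and 22.0% of its regions, below the background in each comparison. Tgfbr2, a receptor of TGF-beta, had 10 of 14 regions higher in NanogKO:Esrrb and 9 in NanogKO:Esrrb:Nanog. Near it, chr9:116213258-116213596 rose from 3.12, 3.29 and 3.79 CPM to 5.68, 7.44 and 6.0 CPM and to 16.2, 13.4 and 15.0 CPM (0.91 ± 0.15, adjusted p = 2.31e-05, and 2.13 ± 0.15, 7.62e-12). The fibroblast collagens of the list differed in NanogKO:Esrrb:Nanog against NanogKO. Col1a2 had 9 of 11 regions lower and none higher, Col1a1 had 3 of 11 higher and none lower, and Col3a1 had 1 of 4 lower and none higher. Other extremes were a region inside Axl, a receptor kinase (chr7:25777149-25777274, 2.08 ± 0.31 in NanogKO:Esrrb, adjusted p = 6e-06), regions near Foxc1 (chr13:31779439-31780085, 1.46 ± 0.18, 2.42e-07) and Twist2 (chr1:91765885-91766097, -2.71 ± 0.33, 2.85e-07), a region inside Tcf4 (chr18:69458859-69459019, 2.86 ± 0.26 in NanogKO:Esrrb:Nanog, 7.77e-10), and a region near Tgfbr1 (chr4:47345209-47345338, -4.15 ± 0.51, 1.58e-07), where NanogKO:Esrrb:Nanog replicate 2 had no read.

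The deposited peak lists, 1 per group, covered 131 of the 166 regions for NanogKO, 131 for NanogKO:Esrrb and 112 for NanogKO:Esrrb:Nanog, and 83 regions were in all 3 lists. Of the remaining regions 23 were in the NanogKO list alone, 12 in that of NanogKO:Esrrb alone and 6 in that of NanogKO:Esrrb:Nanog alone. The NanogKO list alone held falling regions named above: chr15:37347338-37347932 of Grhl2, chr2:167546687-167546996 of Snai1, chr2:45067239-45067500 of Zeb2 and chr12:33968703-33968817 of Twist1. The same holds for the regions of the wider lists that fell near Dsp, Cldn4, Twist2 and Tgfbr1. Those that rose near Dsp and inside Grhl3, Axl and Tcf4 have no NanogKO peak. Esrp1 had peaks at 17, 12 and 8 of its 17 regions in the 3 lists, while Zeb2 had 14 of 18 in each list and Twist1 8, 7 and 8 of 9. The lists hold 122360, 129086 and 138118 peaks in that order, and the share of all counted regions in each list was not computed. The peak names in the NanogKO:Esrrb:Nanog list are all of a NanogKO:Esrrb library, so its overlap may not describe that group alone. At the regions named by rule with a peak in both of these lists, the top scores were equal, as at the Cdh1 low end (1786 in each). Counts ranked by score therefore do not describe NanogKO:Esrrb:Nanog. Because the counted regions merge the lists, regions open only in that group may be missing. Its lower counts, at Esrp1 as well, therefore cannot be read as peaks lost with Nanog.

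The stepwise pattern of the rising Zeb1 region was compared with the regions of other genes by the root mean square difference of centred log2 CPM over the 9 libraries. The 3 most alike lay inside Ctif (chr18:75521201-75521643, difference 0.077), Cdc42se1 (chr3:95231312-95231468, 0.084) and Pakap (chr4:57846807-57847512, 0.086). Their mean levels went from 0.970 to 2.13 and 3.82 CPM, from 2.06 to 4.16 and 7.31 CPM, and from 8.90 to 18.8 and 33.6 CPM over NanogKO, NanogKO:Esrrb and NanogKO:Esrrb:Nanog.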

How the data were processed

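ATAC-seq was analysed in 9 libraries, 3 per group, though the design text counts 12. The deposited table holds raw read counts per region as the authors made it (build mm10). Per the submitters' processing notes, the tools included cutadapt, Bowtie2, SAMtools 1.4.1, MACS2 2.2.0 and bedtools 2.26.0, with no role stated, and the sources used here do not give the counting tool. The deposited peak lists, 1 per group, hold the authors' peak score, with a lowest score of 13, used here only to rank peaks within a list. Merging the 3 lists gives the 157497 counted regions.

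Counts were filtered by filterByExpr, which left 157439 regions, scaled with TMM factors and tested in 1 fit of all 9 libraries (6 residual degrees of freedom) with edgeR 4.0.16 (R 4.3.3), by the quasi-likelihood test with Benjamini-Hochberg adjustment over all tested regions. Every adjusted p in the text is from edgeR unless another tool is named, and calls need one under 0.05. The fit was tested on simulated data. SEs were derived from the F statistic. CPM values are TMM-scaled, and their log2 used 2 as prior count. Gene spans are those of RefSeq on GRCm38. Promoter windows were matched for 5 of the 10 genes and mature sequences for all 5 miR-200 microRNAs.

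Regions were named by rule: those at each gene's start or span end, with the smallest p in each comparison, or with the highest mean CPM, and in the wider lists those with the smallest p and the largest rise and fall. The members and lists were chosen with earlier results of these data known. Same-numbered libraries correlated in their deviations from group means for NanogKO with NanogKO:Esrrb (r = 0.117 to 0.152) and NanogKO:Esrrb with NanogKO:Esrrb:Nanog (0.105 to 0.146), each over 0.1, so a fit with a replicate block was run as an alternative, and for NanogKO with NanogKO:Esrrb:Nanog not (0.0022 to 0.136). Other alternatives were DESeq2 1.42.0, other scalings, filters, thresholds and distances, fits of 2 groups, and leaving out each library.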

Additional observations from a re-analysis of the deposited data

How the results depend on the processing

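No called value of a named region reversed direction under any alternative run. Of the values of named regions under alternatives, 79 lost a call, 31 gained one and 2517 stayed on their side of the threshold. The count of member regions higher with Nanog fell from 23 to 12 without TMM factors and to 12 with upper-quartile factors. All regions higher with Nanog then numbered 12765 and 12653 (19777 with TMM), those of the wider epithelial list 26 and 26 (41 with TMM), and lower calls of the wider mesenchymal list rose to 40 (from 26) with upper-quartile factors. Restricting members to regions overlapping the span left 13 higher and 32 lower in NanogKO:Esrrb, 30 lower in NanogKO:Esrrb:Nanog, and 15 higher and 10 lower with Nanog, and a limit of 10 kb left 43 lower in NanogKO:Esrrb:Nanog, since fewer regions were counted. At an adjusted p under 0.01, 12 regions were higher in NanogKO:Esrrb, and 11 higher and 10 lower with Nanog. Peaks at or above the median score of their list touched 61, 53 and 41 regions, and peaks of the NanogKO:Esrrb:Nanog list covering at least 0.5 of a region 73. The count of 41 rests on scores that match those of the NanogKO:Esrrb list where both hold a peak at a region named by rule.

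Leaving out 1 library, member counts ranged from 14 to 23 higher and 47 to 66 lower in NanogKO:Esrrb, 22 to 32 and 51 to 65 in NanogKO:Esrrb:Nanog, and 14 to 29 and 12 to 25 with Nanog. Over all regions the ranges were 25620 to 33854 and 20533 to 30184, 34155 to 40252 and 32807 to 40922, and 12526 to 24714 and 11821 to 25288. For the wider epithelial list they were 33 to 41 and 36 to 46, 50 to 56 and 40 to 48, and 23 to 45 and 12 to 24, and for the mesenchymal list 38 to 52 and 18 to 29, 50 to 61 and 33 to 44, and 20 to 40 and 15 to 31.

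With the replicate block, member counts were 22 higher and 63 lower, 30 and 68, and 29 and 22 in the 3 comparisons. Regions described in the report that gained a call with the block were chr8:106619469-106620109 of Cdh1 (0.0355), the starts of Vim (0.0409) and Snai1 (0.00713), the region near that of Esrp1 (0.0456) and chr4:156063895-156064653 near Mir200a (0.0457), all with Nanog. In NanogKO:Esrrb:Nanog against NanogKO, where the numbers did not pair all libraries, they were the starts of Cdh1 (-0.23, 0.0372) and Zeb1 (0.28, 0.0494) and chr4:156050572-156050907 near Mir200a (-0.49, 0.0484). DESeq2 gave 17 and 56, 28 and 61, and 26 and 18.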
